A study of Mus musculus with 4 samples.

Results

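The genes described here are 45 genes of the cell division cycle, 20 that act around the start of DNA replication (G1/S genes) and 25 that act in mitosis (G2/M genes). They were taken by gene name from the array annotation, as every spot that was no control and carried one of the 45 names. They make up 45 of the 34797 gene names on the array, 70 of its 59305 spots and 61 of its 55681 probes. All 45 were measured well enough to be tested: 44 were well above background on all 4 arrays, and Ccne2 on the 2 wild-type arrays only. Within them, the 10 replication genes (Mcm2 to Mcm7, Pcna, Cdc6, Ccne1 and Ccne2) were compared with 9 mitotic genes (Ccnb1, Ccnb2, Plk1, Cenpa, Cenpe, Cenpf, Kif11, Kif20a and Kif23).

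The RNA came from whole ears of 4 mice, taken 48 h after 2,4-dinitrofluorobenzene (DNFB), which provokes contact allergy and skin inflammation. All 4 mice carried RelA flanked by loxP sites (RelAfl/fl) on both alleles. RelA, also called p65, is a subunit of NF-kB, a transcription factor of inflammation and cell survival. The 2 wild-type mice had no recombinase, and the 2 mutant mice also carried K14Cre, a Cre recombinase under the keratin 14 promoter, which is active in basal keratinocytes. Only the mutants carried Cre, so an effect of Cre itself and one of losing RelA cannot be told apart. Whole ear is a mixture of epidermis, hair follicles, connective tissue, immune cells, muscle and cartilage. Untreated ears were not among the 4 samples. The age and sex of the mice and the deleted exons are not given in the labels.

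A cell that commits to division releases E2F transcription factors from the retinoblastoma protein, and these switch on genes for loading the MCM helicase onto origins and for making DNA. Genes for chromosome segregation are held off until later by a repressor complex called DREAM, and are then switched on by B-MYB and FOXM1, largely through promoter elements named CHR and CCAAT (the NF-Y box). In skin these genes mark the dividing basal layer of the epidermis, the hair matrix and dividing immune cells.

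The promoters of the 2 sets differed in these elements. RefSeq promoters (build GRCm38.p6, from 250 bases before to 50 after each transcription start) were at hand for 16 of the 20 G1/S genes (19 promoters) and 19 of the 25 G2/M genes (19 promoters). An E2F motif (TTTGGCGC, TTTCCCGC, TTTGGCGG or TTTCCCGG, on either strand) was present in 36.8% of the G1/S promoters and 5.26% of the G2/M promoters, against 3.32% of all 32851 promoters in the table. A CHR motif (TTTGAA or TTCGAA, on either strand) was present in 21.1% of the G1/S and 73.7% of the G2/M promoters, against 19.2% of all promoters. The NF-Y box (CCAAT, on either strand) was found in 73.7% of G1/S, 84.2% of G2/M and 37.4% of all promoters. CHR and the NF-Y box occurred together in 21.1%, 73.7% and 7.53% in the same order. Of the narrower sets, 5 of 9 replication promoters and 0 of 8 mitotic promoters held an E2F motif, and 2 of 9 and 6 of 8 held a CHR motif. No match of 1 motif overlapped a match of another motif. A match describes the letters only and does not show that a factor binds there.

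Cdc6, Mcm5 and Mcm6 are shown because they are replication genes with an E2F motif in the 150 bases before the start, which are printed 5′ to 3′ in the direction of the gene with the motifs in capitals. They lie at chr11:98908001-98908150 (plus strand), chr8:75109359-75109508 (plus strand) and chr1:128359706-128359855 (minus strand). The capitals mark E2F motifs, read as GCGGGAAA or GCGCCAAA on the opposite strand, and NF-Y boxes, read as ATTGG on the opposite strand.
Cdc6: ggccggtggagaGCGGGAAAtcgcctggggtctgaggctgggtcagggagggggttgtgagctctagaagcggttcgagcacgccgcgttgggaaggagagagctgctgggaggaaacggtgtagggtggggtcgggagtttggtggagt
Mcm5: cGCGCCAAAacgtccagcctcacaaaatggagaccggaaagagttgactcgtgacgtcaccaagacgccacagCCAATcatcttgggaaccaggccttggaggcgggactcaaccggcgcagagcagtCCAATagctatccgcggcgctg
Mcm6: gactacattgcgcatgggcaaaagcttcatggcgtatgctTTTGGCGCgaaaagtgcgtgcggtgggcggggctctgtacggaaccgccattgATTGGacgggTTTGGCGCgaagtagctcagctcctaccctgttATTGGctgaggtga

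Cdc20, Cdk1 and Kif11 are shown as mitotic counterparts, since each holds a CHR motif close to its start and an NF-Y box before it. They lie at chr4:118437344-118437493 (minus strand), chr10:69352913-69353062 (minus strand) and chr19:37376232-37376381 (plus strand), where the CHR motif reads TTCAAA on the opposite strand. The capitals mark CHR motifs and NF-Y boxes.
Cdc20: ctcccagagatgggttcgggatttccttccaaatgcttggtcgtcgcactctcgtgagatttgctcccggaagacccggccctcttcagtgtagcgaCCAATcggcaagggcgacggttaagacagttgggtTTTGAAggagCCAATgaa
Cdk1: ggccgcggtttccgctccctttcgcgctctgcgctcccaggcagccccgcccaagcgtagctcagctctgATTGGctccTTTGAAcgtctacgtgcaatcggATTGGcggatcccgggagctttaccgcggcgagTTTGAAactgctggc
Kif11: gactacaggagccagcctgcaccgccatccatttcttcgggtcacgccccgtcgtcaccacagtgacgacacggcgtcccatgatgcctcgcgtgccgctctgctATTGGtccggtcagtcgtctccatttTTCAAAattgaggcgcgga

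**Figure D1:**
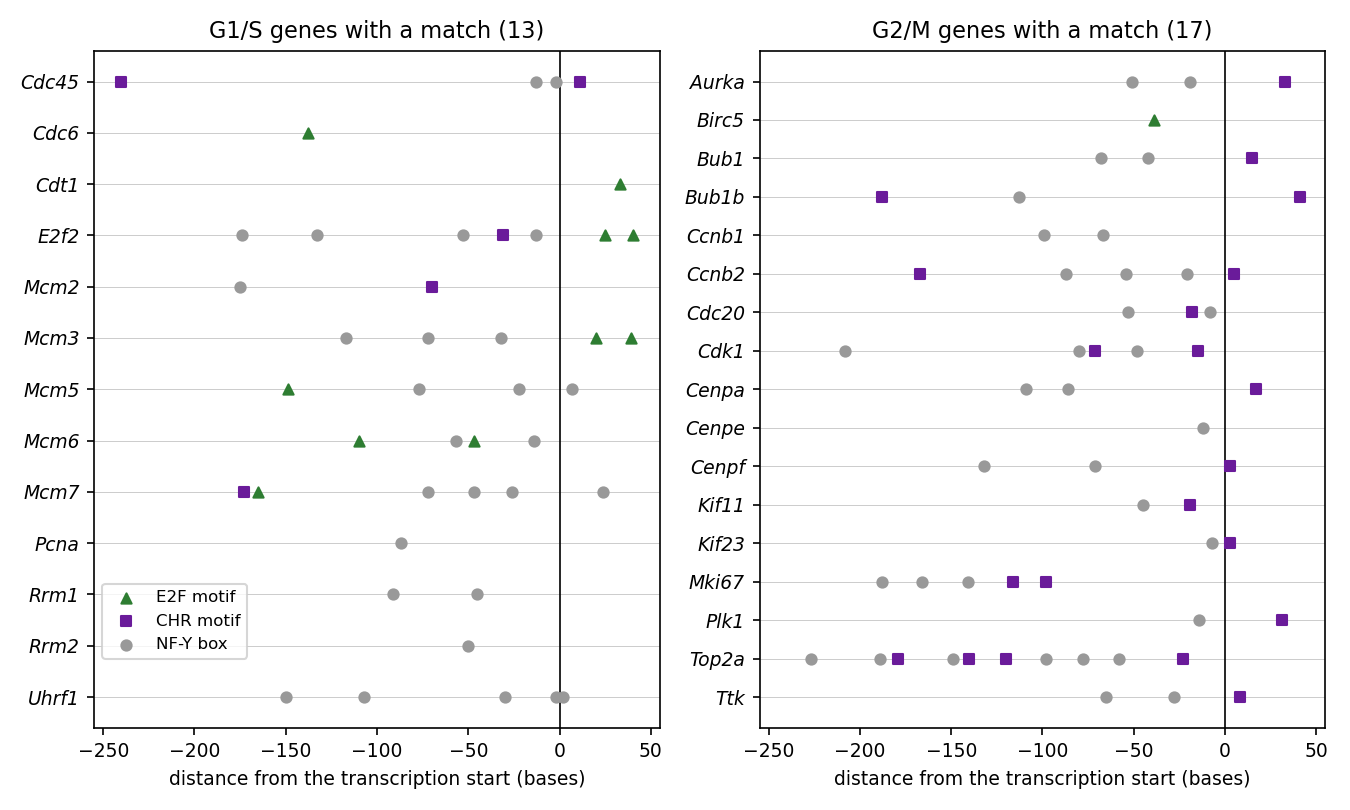
Position of motif matches in the RefSeq promoters of the members, with the distance of a match's first base from the transcription start in bases on the horizontal axis and 1 gene per row (left G1/S, right G2/M). Triangles are E2F motifs, squares CHR motifs and circles NF-Y boxes, and E2F motifs are in 7 G1/S promoters and 1 G2/M promoter while CHR motifs are in 4 and 14.

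The arrays were alike in brightness. Before scaling, the 75th percentile of the intensity lay between 589 and 664, and between 61.2% and 64.3% of the spots were well above background. The array of wild-type mouse 1 was the highest by both measures. The array of mutant mouse 2 has a damaged corner with dark spots (rows 1 to 112, columns 145 to 164), which holds 845 of the 23632 genes tested. Among the members it holds the spots of Cenpe and Cenpf. It also holds the only tested spot of Rela, the targeted gene, with levels of 4.48 and 4.60 in the wild-type pair and 4.59 and 4.72 in the mutant pair. Here and below, levels are log2 intensities with the 75th percentile of the array set to 0, and each pair of values is given in the order mouse 1, mouse 2. The Rela values overlapped between the groups (log2 fold change 0.11 ± 0.12, limma's standard error, adjusted p = 0.887).

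The mutants did not differ from the wild type in any of the 45 genes at an adjusted p under 0.05 (limma, Benjamini-Hochberg over all 23632 genes), and the smallest adjusted p was 0.548. Over all genes, 2 were called higher and 2 lower, which is 0.00846% in each direction. At an unadjusted p under 0.05, 0 members were higher and 1 (Cenpf) was lower, against 2.96% and 3.55% of all genes. The mutant values lay above both wild-type values for 6 members (Mcm2, Mcm4, Ccne1, Uhrf1, Ccnb1 and Aurkb), against 18.9% of all genes. They lay below both for 2 members (Cdc6 and Cenpf), against 17.4% of all genes, and overlapped for the other 37. The median log2 fold change of the mutants over the wild type was 0.16 for the members, beside 0.01 for all genes. It was above 0 for 38 members and below 0 for 7, where 53.5% of all genes were above 0. Of the 7, Ccne2 has only a bound in the mutants, and without it 6 were below 0. The 95% confidence interval included 0 for 44 of the 45, and with a median standard error of 0.18 the median bounds were -0.33 and 0.66. A change within such bounds was not detectable with 2 mice a group. Each value comes from 1 mouse, so the p-values measure only the spread between these 4 samples.

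**Figure D2:**
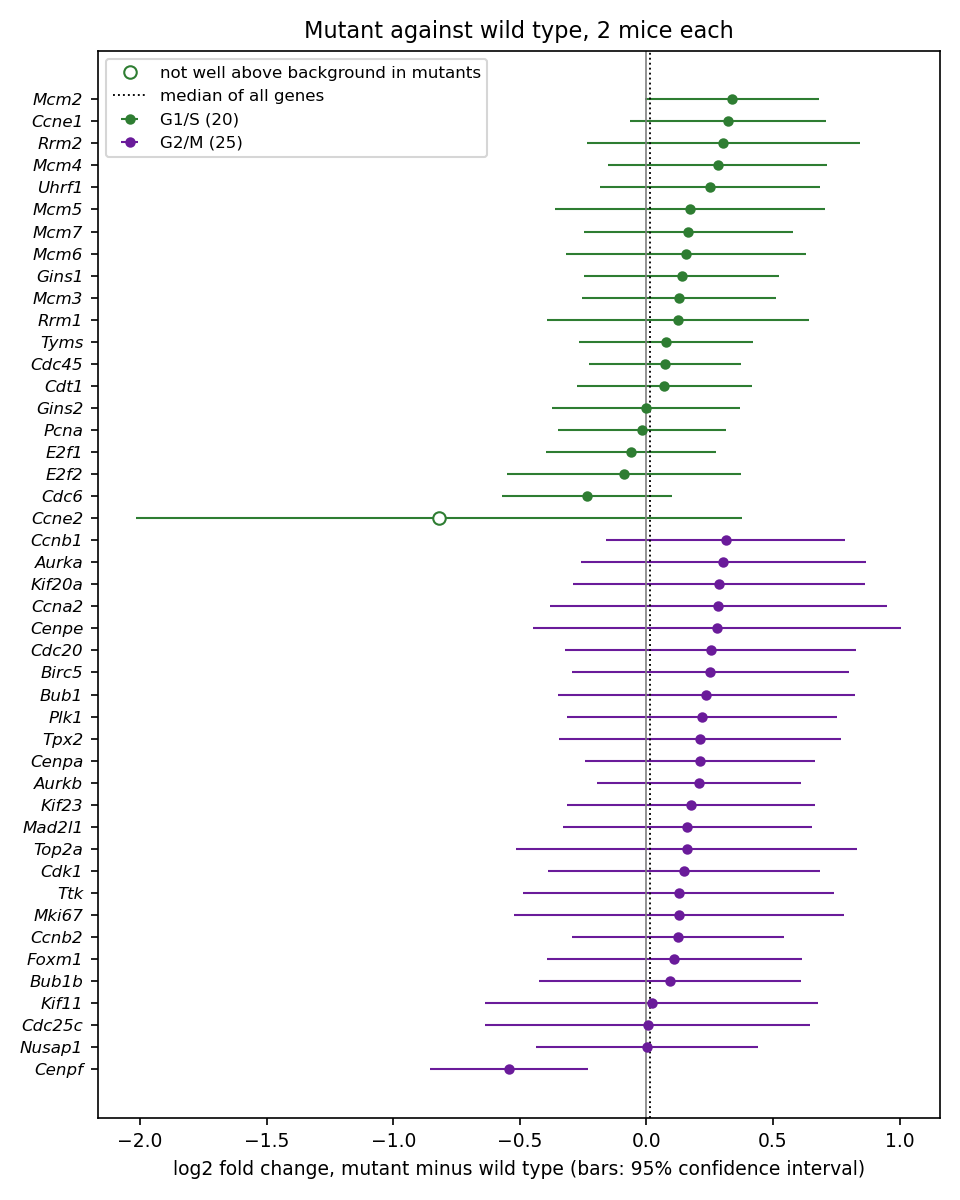
Log2 fold change of each of the 45 genes, mutant minus wild type (2 mice each), with limma's 95% confidence interval as bars, G1/S genes above G2/M genes. The open circle is Ccne2, not well above background in the mutants, where it has only a bound. The intervals of 44 genes cross 0, that of Cenpf does not, and the dotted line at 0.01 is the median of all 23632 genes.

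The clearest pattern in the values lay within the wild-type group. Wild-type mouse 1 was below wild-type mouse 2 in 45 of 45 members, against 55.3% of all genes tested. It had the lowest of the 4 values in 39 members (16 G1/S and 23 G2/M), against 34.2% of all genes, and mutant mouse 1 was lowest in the other 6 (Cdc6, Ccne2, E2f1, E2f2, Cdc25c and Cenpf). The gap between the wild-type mice had a median of -0.40 on the log2 scale (mouse 1 minus mouse 2, 1.32-fold), against -0.03 for all genes. It was wider for G2/M genes (-0.48) than for G1/S genes (-0.28). Gaps beyond 0.5 were seen in 12 G2/M genes and in 1 G1/S gene, Mcm5. Since this is 1 mouse against 1 mouse, the gap has no replicate and no test.

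For 39 of the 45 members the difference between mutant and wild type was smaller than this gap, which held for 58.9% of all genes. Set against wild-type mouse 2 alone, the mutant mean had a median difference of -0.06 over the members, and set against wild-type mouse 1 alone it was 0.37. Leaving out wild-type mouse 1 left 12 members above 0 and 33 below. Without wild-type mouse 2, 41 were above 0 and 4 below. Without mutant mouse 1 the count above 0 was 40 and the median 0.21, and without mutant mouse 2 it was 31 with a median of 0.08. The direction of the members in the comparison of mutant with wild type thus depended on which wild-type mouse served as the control.

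**Figure D3:**
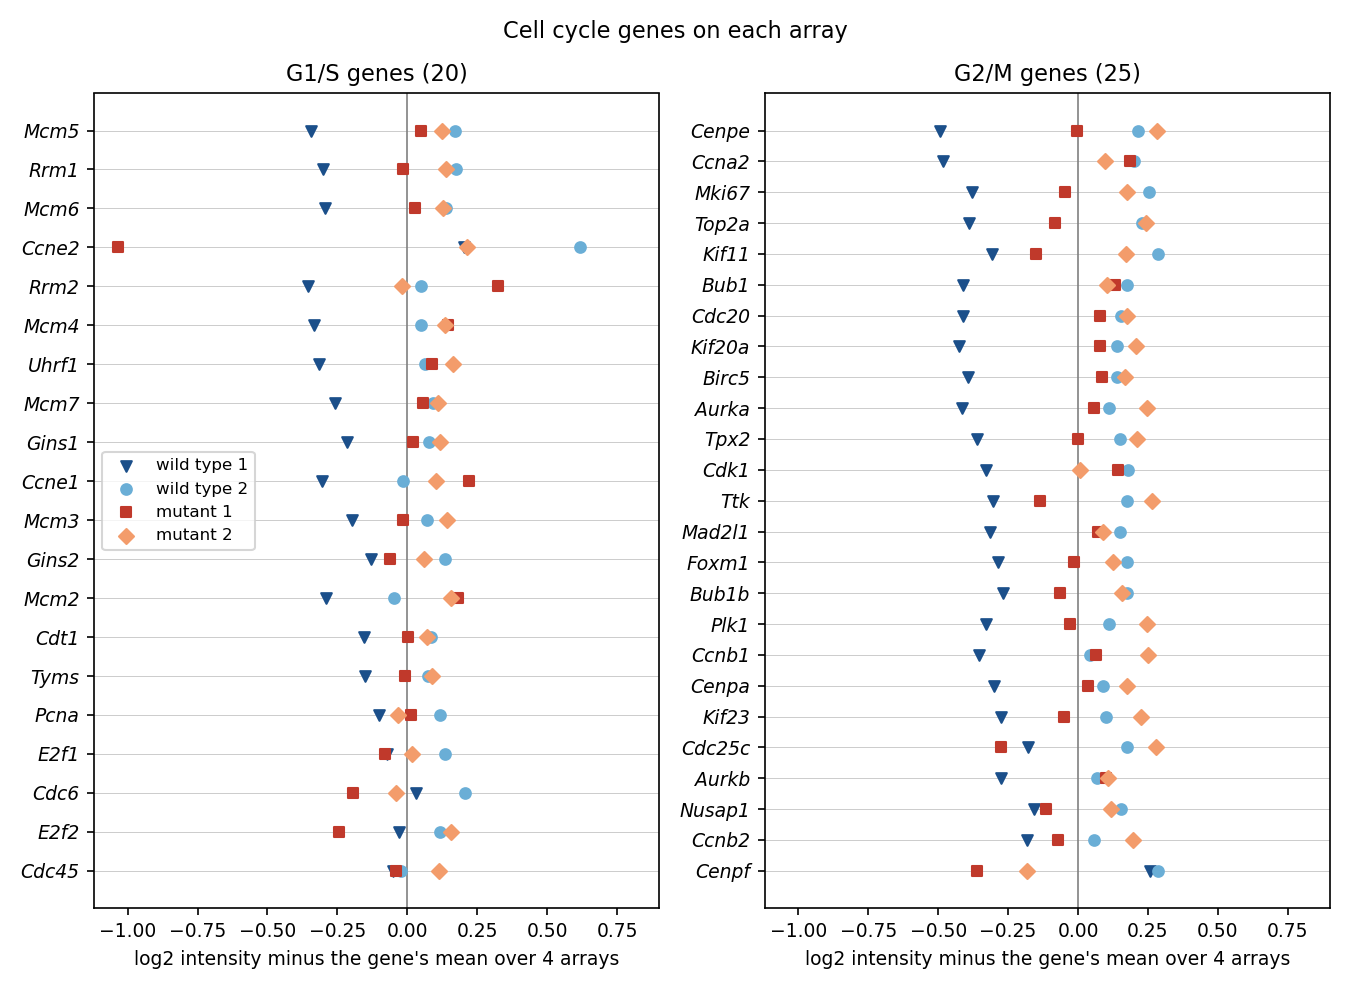
Log2 intensity of each member on each of the 4 arrays minus the gene's own mean over the arrays, for 20 G1/S genes (left) and 25 G2/M genes (right), sorted by the gap between the wild-type mice. The downward triangles of wild-type mouse 1 lie left of the circles of wild-type mouse 2 in all 45 rows and are the leftmost mark in 39.

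The MCM proteins form the helicase that is loaded at origins and unwinds DNA. Mcm2 (probe at chr6:88833619-88833678, mm9) stood at 0.93 and 1.17 in the wild type and at 1.40 and 1.37 in the mutants. Both mutants were above both wild-type mice, and its fold change was the highest of the members (0.34 ± 0.13, 95% interval -0.01 to 0.68, adjusted p = 0.780). Mcm4 had 3.08 and 3.47 in the wild type and 3.56 and 3.55 in the mutants, again without overlap (0.28 ± 0.16, adjusted p = 0.854). The other 4 subunits had values in the mutants that were close to those of wild-type mouse 2. Mcm5 was at 2.19 and 2.70 in the wild type and at 2.58 and 2.66 in the mutants. For Mcm6 the wild-type values were 4.21 and 4.64 and the mutant values 4.53 and 4.63. In both, wild-type mouse 1 was lowest and wild-type mouse 2 highest, and the fold changes were 0.17 ± 0.20 and 0.16 ± 0.18. Mcm3 measured 3.06 and 3.33 in the wild type and 3.25 and 3.41 in the mutants. Mcm7 measured 2.87 and 3.22 against 3.18 and 3.24. Wild-type mouse 1 was lowest and mutant mouse 2 highest for both (0.13 ± 0.14 and 0.17 ± 0.16). At the second, dimmer probe of Mcm3 both mutants were above both wild-type mice (0.24 ± 0.14).

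Cdc6 loads the MCM ring together with Cdt1, and its values went the other way from those of Mcm2 and Mcm4. It was at -1.55 and -1.37 in the wild type and at -1.77 and -1.62 in the mutants, without overlap (-0.23 ± 0.13, adjusted p = 0.851). A second, dimmer probe of Cdc6 had a fold change of -0.13 ± 0.15, with overlap. Cdt1 had 2.75 and 2.99 in the wild type and 2.90 and 2.97 in the mutants. Pcna, the sliding clamp of the DNA polymerases, had 4.41 and 4.63 against 4.53 and 4.48. Both overlapped, with fold changes of 0.07 ± 0.13 and -0.02 ± 0.13.

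The E cyclins activate CDK2 at the start of S phase. Ccne1 was at 1.005 and 1.30 in the wild type and at 1.53 and 1.41 in the mutants, where both values were above the wild-type ones (0.32 ± 0.15, adjusted p = 0.811). The second Ccne1 probe had a fold change of 0.14 ± 0.15 and overlapped. Ccne2 (probe at chr4:11131423-11131482, mm9) was the dimmest member, at -5.56 and -5.15 in the wild type and -6.80 and -5.55 in the mutants, and on both mutant arrays it was not well above background. It has only a bound in the mutants, taken against the lowest signal that counts as measured on those arrays (-5.29 and -5.50). By this bound the mutant mean was at least 1.03-fold below the wild-type mean. Wild-type mouse 1 was below both of these limits and below mutant mouse 2, so the bound does not show a decrease. The measured means were -5.35 in the wild type and -6.17 in the mutants. It entered the fit only through the wild-type arrays, so its measured fold change supports nothing and its p is not given. The median over the replication genes was 0.16 with Ccne2 at its bound and 0.17 without it.

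Of the remaining G1/S genes, Rrm2 and Rrm1 encode the subunits of ribonucleotide reductase, which makes deoxynucleotides. Rrm2 stood at 3.1 and 3.50 in the wild type and at 3.78 and 3.44 in the mutants (0.30 ± 0.20). Rrm1 stood at 2.56 and 3.03 against 2.84 and 3.0 (0.12 ± 0.19). In both, wild-type mouse 1 was lowest and the groups overlapped. Tyms, thymidylate synthase, had -2.27 and -2.05 in the wild type and -2.13 and -2.03 in the mutants (0.08 ± 0.13). Uhrf1, which recruits the maintenance DNA methyltransferase to replicated DNA, had 2.67 and 3.05 against 3.07 and 3.15. Its groups did not overlap, although wild-type mouse 2 lay just below both mutants (0.25 ± 0.16, adjusted p = 0.865). The second, dimmer probe of Uhrf1 overlapped (0.20 ± 0.24). Cdc45 and the GINS subunit Gins1 complete the active helicase. Cdc45 had -2.76 and -2.73 in the wild type and -2.75 and -2.59 in the mutants. Gins1 had 0.75 and 1.04 against 0.99 and 1.08. Both overlapped, with fold changes of 0.07 ± 0.11 and 0.14 ± 0.14. E2f2, an activating E2F factor, had 2.51 and 2.65 in the wild type and 2.29 and 2.69 in the mutants, which were the lowest and the highest of the 4 values (-0.09 ± 0.17). E2f1, the other activating factor among the members, and Gins2 had fold changes of -0.06 ± 0.13 and 0.00 ± 0.14.

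The mitotic cyclins Ccnb1 and Ccnb2 activate CDK1 for entry into mitosis. Ccnb1 stood at 1.89 and 2.29 in the wild type and at 2.31 and 2.49 in the mutants. The groups did not overlap, with wild-type mouse 2 just below mutant mouse 1 (0.31 ± 0.18, adjusted p = 0.851), and the other 2 probes of Ccnb1 overlapped, with fold changes of 0.19 ± 0.22 and 0.11 ± 0.26. Ccnb2 had 3.08 and 3.32 in the wild type and 3.19 and 3.46 in the mutants (0.12 ± 0.16). Ccna2, cyclin A2, acts in S phase and at mitotic entry and had 1.67 and 2.35 against 2.34 and 2.25. Its wild-type mice differed by 0.68, and wild-type mouse 2 was above both mutants. Plk1, a kinase needed for spindle assembly and mitotic exit, had 2.38 and 2.83 in the wild type and 2.69 and 2.96 in the mutants (0.22 ± 0.20).

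Cenpa replaces histone H3 in centromeric chromatin, and Cenpe and Cenpf are outer kinetochore proteins. Cenpa had 1.60 and 1.99 in the wild type and 1.93 and 2.07 in the mutants (0.21 ± 0.17). Cenpe (probe at chr3:134936387-134936446, mm9) had 1.86 and 2.57 in the wild type and 2.35 and 2.64 in the mutants. Its gap between the wild-type mice, -0.71, was the largest of the members (0.28 ± 0.27). Cenpf (probe at chr1:191464978-191465037, mm9) was dim, at -4.36 and -4.33 in the wild type and -4.98 and -4.80 in the mutants, and it was the member with the smallest gap between the wild-type mice (-0.03). Both mutants were lower than both wild-type mice (-0.54 ± 0.12, 0.686-fold, unadjusted p = 0.00738, adjusted p = 0.548). The probes of Cenpe and Cenpf both lie in the damaged corner on the array of mutant mouse 2. On the undamaged array of mutant mouse 1 Cenpf was also below both wild-type values. Without the corner's spots on every array, 43 members were left and 0 had an unadjusted p under 0.05. Cenpf is among those left out, so this count cannot tell whether the damage shaped its difference.

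Kif11, Kif20a and Kif23 are kinesins that separate the spindle poles and build the midzone and midbody. Kif11 had -1.63 and -1.04 in the wild type and -1.47 and -1.15 in the mutants (0.02 ± 0.25). Kif20a had 1.22 and 1.78 against 1.72 and 1.85 (0.29 ± 0.22). Kif23 had 0.12 and 0.50 against 0.35 and 0.62 (0.18 ± 0.18). In all 3 wild-type mouse 1 was lowest and the groups overlapped, with wild-type mouse 2 highest for Kif11 and mutant mouse 2 highest for Kif20a and Kif23.

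Among the other mitotic members, Aurka and Aurkb are the Aurora kinases, of the spindle poles and of the chromosomal passenger complex. Aurka had 1.43 and 1.96 in the wild type and 1.91 and 2.10 in the mutants (0.30 ± 0.21). Aurkb had -3.02 and -2.68 against -2.65 and -2.64, where the 2 mutants and wild-type mouse 2 lay close together and wild-type mouse 1 was below them (0.21 ± 0.15). Birc5 (survivin), a partner of Aurkb, had 3.80 and 4.33 in the wild type and 4.28 and 4.36 in the mutants (0.25 ± 0.21). The same form, with 3 values together and wild-type mouse 1 below, was seen for Cdc20, the activator of the anaphase-promoting complex, at 3.28 and 3.84 against 3.77 and 3.86 (0.25 ± 0.22). Mad2l1, which holds Cdc20 back at the spindle checkpoint, had 1.49 and 1.95 against 1.87 and 1.89 (0.16 ± 0.18). At its 2 dimmer probes the wild-type mice were closer together, with gaps of -0.03 and -0.12. Both mutants were above both wild-type mice there (0.18 ± 0.11 and 0.34 ± 0.11). The second of these probes had an unadjusted p = 0.0359 in limma (adjusted p = 0.731). Tpx2, which activates Aurka on the spindle, had 0.45 and 0.96 in the wild type and 0.81 and 1.02 in the mutants (0.21 ± 0.21). Wild-type mouse 1 was the lowest of the 4 for each of these genes. The other 8 G2/M members (Cdk1, the mitotic kinase; Cdc25c, its activating phosphatase; Bub1b and Ttk of the spindle checkpoint; Top2a, which disentangles DNA; Mki67, the Ki-67 antigen; Nusap1, a spindle protein; and Foxm1) had fold changes between 0.00 and 0.16. Wild-type mouse 1 was below wild-type mouse 2 in each of them.

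Bub1 (probe at chr2:127626988-127627047, mm9), a checkpoint kinase, gives a measure of the error of a single array, since its probe is spotted 10 times. It stood at -0.87 and -0.28 in the wild type and at -0.33 and -0.36 in the mutants (0.24 ± 0.22). The SD among the repeated spots was 0.04, 0.06, 0.08 and 0.04 on the arrays in the order wild-type mouse 1, wild-type mouse 2, mutant mouse 1, mutant mouse 2 (9 spots on the first array, where 1 was an outlier, and 10 on the others). The highest spot of wild-type mouse 1, at -0.82, was below the lowest spot on any other array, at -0.45. The gap of 0.59 between the wild-type mice was thus larger than the error of reading 1 array. Repeated spots share the RNA, the labelling and the hybridisation, so they say nothing about the spread between mice.

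**Figure D4:**
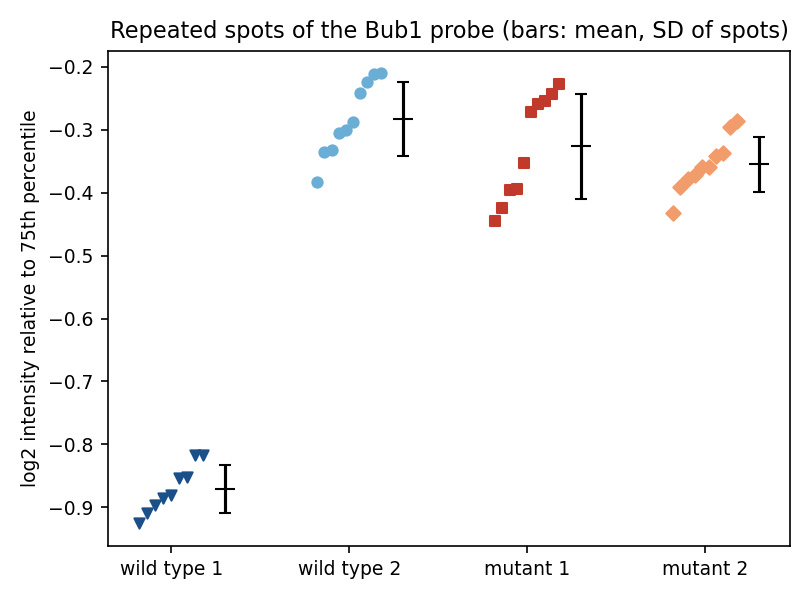
Level (log2 intensity, 75th percentile set to 0) of each repeated spot of the Bub1 probe on the 4 arrays, with the mean and the SD of the spots as bars. The 9 spots of wild-type mouse 1 lie between -0.93 and -0.82, and all spots of the other 3 arrays lie between -0.45 and -0.21.

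The other probes of the members gave the same order of the wild-type mice. Over all 61 probes of the members, 52 had a fold change above 0 and 9 below, and wild-type mouse 1 was below wild-type mouse 2 in 61 of 61. With every probe tested on its own, 0 of the 61 passed an adjusted p under 0.05 in limma (smallest 0.583), against 7 of all 33674. At an unadjusted p under 0.05 there were 2 of the 61, the probe of Cenpf and a dim probe of Mad2l1. The fit by gene had 2.96% of all genes higher and 3.55% lower. Of the 12 genes with more than 1 probe, 11 had the same sign at all probes. Foxm1, which drives the mitotic genes, was the exception, with 0.11 ± 0.19 at its brighter and -0.17 ± 0.25 at its dimmer probe. Wild-type mouse 1 was the lowest at every probe in 10 of the 12, the exceptions being Cdc6 and Foxm1.

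The replication and mitotic genes were set against each other by their medians. The median fold change was 0.16 for the 10 replication genes and 0.21 for the 9 mitotic genes, a difference of -0.05. As deviations from each gene's mean over the 4 arrays, the medians of the replication genes were -0.28, 0.11, 0.04 and 0.13 on the 4 arrays, in the order wild-type mouse 1, wild-type mouse 2, mutant mouse 1, mutant mouse 2. Those of the mitotic genes were -0.31, 0.11, -0.03 and 0.21. The difference between the sets was 0.03, -0.01, 0.07 and -0.08 in the same order. The SD of these 4 values within the groups, pooled over both, was 0.08. The difference of -0.05 is between medians of fold changes, a separate measure, so this SD is not its error. The pooled SD within the groups was 0.20 for the replication median and 0.24 for the mitotic median. Leaving out mutant mouse 2 turned the difference to 0.04. Mutant mouse 1 was below mutant mouse 2 in 9 of 9 mitotic and in 6 of 10 replication genes. With all members, the medians were 0.13 for G1/S and 0.18 for G2/M genes, again a difference of -0.05. These medians describe lists chosen with results known and carry no test.

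Other genes of the cell cycle, 129 in 7 lists of which 125 were tested, went the same way as the members. None was called at an adjusted p under 0.05 in limma. At an unadjusted p under 0.05, 2 were higher (Cdkn1a and Orc1) and 0 lower, against 2.96% and 3.55% of all genes. The fold change had a median of 0.11 and was above 0 for 105 and below 0 for 20, where 53.5% of all genes were above 0. Wild-type mouse 1 was below wild-type mouse 2 in 114, against 55.3% of all genes. That held for 46 of 46 other mitotic genes (43 above 0, median 0.14) and for 35 of 35 other origin and fork genes (26 above 0, median 0.07). It held for 4 of 7 CDK inhibitors, which stop the cycle, and for 9 of 11 genes of the anaphase-promoting complex, with median fold changes of 0.02 and 0.03. Leaving out wild-type mouse 1 left 50 of the 125 above 0.

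Among the origin genes, Dbf4, Orc1 and Orc2 had the largest fold changes, and in all 3 both mutants were above both wild-type mice. Orc1, the largest subunit of the origin recognition complex, stood at -3.22 and -3.08 in the wild type and -2.75 and -2.70 in the mutants (0.42 ± 0.11, unadjusted p = 0.0163, adjusted p = 0.650). Dbf4, the activator of the Cdc7 kinase, and Orc2 had 0.47 ± 0.24 and 0.40 ± 0.15. The leading other mitotic genes were Smc2, a condensin subunit, and the kinesins Kif18a and Kif15 (0.34 ± 0.19, 0.33 ± 0.22 and 0.30 ± 0.16). Each of these had both mutants above both wild-type mice. The named genes were picked by the size of their fold change. Over the whole lists, both mutants were above in 9 of 35 origin and fork genes and 5 of 46 other mitotic genes. The share of all genes was 18.9%. Both mutants were below in 2 and 0 genes of these lists, against 17.4% of all genes. The repressive factors E2f8 and E2f7 and the E2F partner Tfdp1 had 0.42 ± 0.28, 0.34 ± 0.27 and 0.25 ± 0.21, with overlap and with wild-type mouse 1 lowest.

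Cyclin D1 (Ccnd1), which links growth signals to the cell cycle, stood at 2.33 and 2.60 in the wild type and at 2.96 and 2.72 in the mutants (0.37 ± 0.16, adjusted p = 0.790). The kinase partner Cdk6 and the pocket protein Rbl1 had 0.23 ± 0.29 and 0.17 ± 0.13. Cdkn1a (p21), an inhibitor of CDKs and a target of the tumour suppressor Trp53, stood at 2.58 and 2.60 against 3.09 and 2.94. Both mutants were above both wild-type mice, whose values were close together (0.43 ± 0.11, unadjusted p = 0.0157, adjusted p = 0.641), and its spot lies in the damaged corner. The inhibitors Cdkn2b and Cdkn2a had 0.36 ± 0.16 and 0.27 ± 0.44. The checkpoint kinases Atr and Atm had 0.20 and 0.17, and Anapc4, Cdc27 and Cdc26 of the anaphase-promoting complex between 0.10 and 0.14.

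Markers of the cell types an ear can hold were read on the same arrays, and they followed several orders. In bulk tissue fewer cells of a type and less RNA per cell cannot be told apart. The stress keratins Krt6a, Krt6b, Krt16 and Krt17, which keratinocytes make in wounded and inflamed skin, had wild-type mouse 1 lowest in 4 of 4. They also had both mutants above both wild-type mice in 4 of 4, against 18.9% of all genes. Only Krt17 among them had an unadjusted p under 0.05 in limma, where 2.96% of all genes were higher. The stress keratins had a median fold change of 0.65. Their median difference between the mutant mean and wild-type mouse 2 alone was 0.26, where the median over the cell cycle members was -0.06. Their median deviations were -0.66, 0.05, 0.35 and 0.29 in the same order of arrays, and their summed intensity was 548, 874, 1080 and 1039 times the 75th percentile of the respective array. Basal keratinocyte genes, among them Krt5 and Krt14, were lower in wild-type mouse 1 than in wild-type mouse 2 in 6 of 7. Their median deviations were -0.14, 0.06, 0.08 and 0.02 and their summed levels 740, 858, 827 and 874. The exception was Krt15, at 6.06 and 5.74 in the wild type and 5.03 and 5.28 in the mutants. Both mutants were below both wild-type mice for Krt15 (-0.74 ± 0.17, limma, unadjusted p = 0.00918, adjusted p = 0.574).

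Wild-type mouse 1 had the highest value of 24.8% of all genes tested. It was highest for 3 of 3 red blood cell genes (summed levels 116, 47.2, 56.9 and 38.3), 6 of 7 T cell genes (23.2, 19.7, 17.3 and 19.7), 4 of 5 macrophage genes, 4 of 6 mast cell genes, 3 of 4 endothelial genes, 3 of 4 cartilage genes and 3 of 5 muscle genes. In other lists it did not stand at an end: it was lowest in 2 and highest in 1 of 6 fibroblast genes and of 5 genes of differentiating keratinocytes, and highest in 1 of 4 B cell and 1 of 4 adipocyte genes. Some lists parted the groups. Both mutants were below both wild-type mice in 5 of 6 sebaceous gland genes, against 17.4% of all genes. Of the 5, 4 had an unadjusted p under 0.05 in limma, where 3.55% of all genes were lower. Wild-type mouse 1 was also the highest in 5 of 6 sebaceous gland genes. Both mutants were below in 3 of 4 B cell, 3 of 4 adipocyte, 3 of 5 macrophage and 3 of 7 T cell genes. The neutrophil genes were mixed, with both mutants above in 3 of 7 (Camp, S100a8 and S100a9) and below in 2 (Csf3r and Elane). Of all genes, 18.9% were above and 17.4% below in this way. Which cells of the ear made S100a8 and S100a9 was not tested. S100a8 and S100a9, named after their values were seen, had fold changes of 1.71 ± 0.18 and 1.30 ± 0.14 (limma, adjusted p = 0.364 for both). Camp, Csf3r and Elane had 0.19, -0.08 and -0.11. Hair follicle genes had wild-type mouse 2 lowest in 10 of 12 and mutant mouse 2 highest in 11 of 12, with summed levels of 21.1, 8.09, 27.0 and 176. None of the marker genes had an adjusted p under 0.05 in limma, and all tested ones were well above background on 4 arrays. Their part in the differences of the cell cycle genes was not tested.

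**Figure D5:**
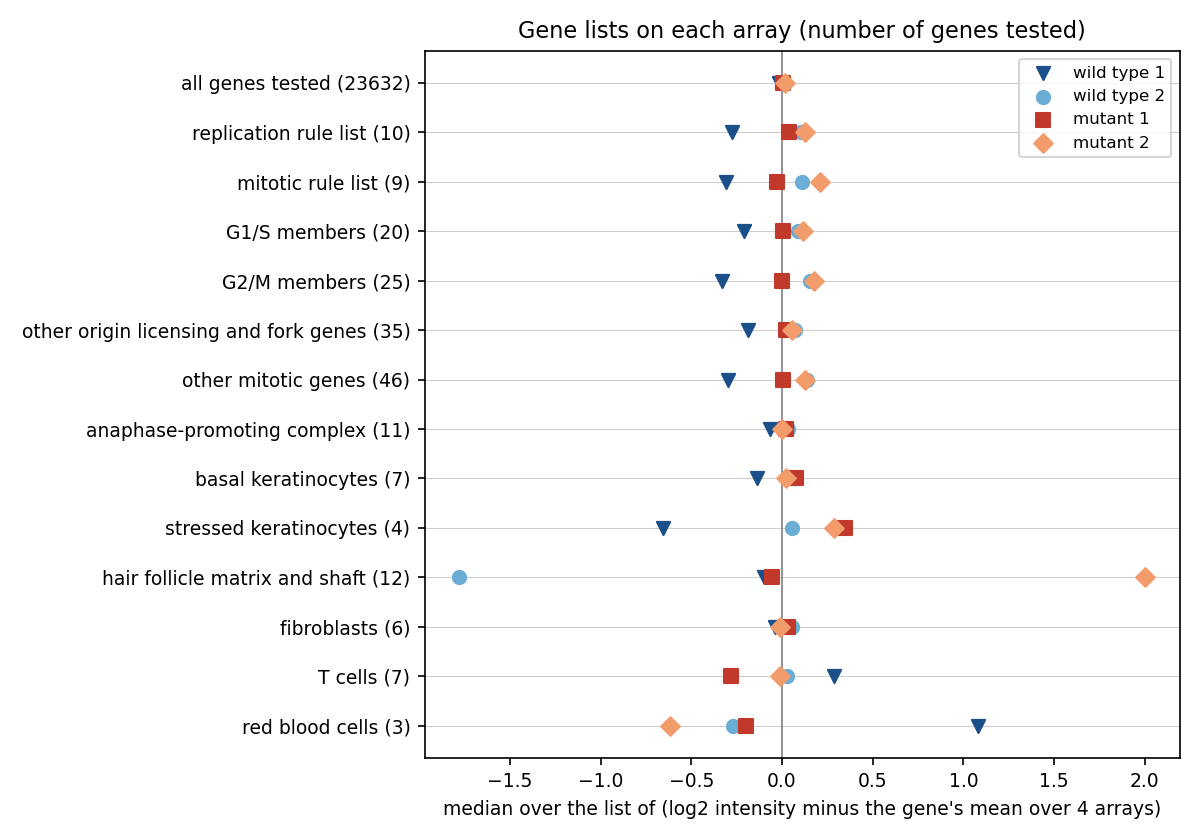
Median over each gene list of the log2 intensity minus the gene's own mean over the 4 arrays, per array, with the number of genes tested in brackets. Wild-type mouse 1 (downward triangles) lies at -0.28 for the replication, -0.31 for the mitotic, -0.66 for the stressed keratinocyte and 1.08 for the red blood cell genes, while over all genes tested it lies at -0.02.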

How the data were processed

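Total RNA (100 ng per ear, 2 wild-type and 2 mutant mice) was hybridised to 4 one-colour Cy3 arrays. The deposited spot intensities are background-subtracted and detrended values of Agilent Feature Extraction 10.7.3.1 without scaling between arrays, with probe positions on mm9, per the file headers. The raw mean signal and local background are uncorrected intensities, and flags of 0 or 1 mark outliers and spots well above background, per the file headers. The authors' series table gives the ratio of each deposited intensity to its array median.

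Control spots (3671) and outliers were left out, each array's 75th percentile was subtracted on the log2 scale and repeated spots were averaged. The test took probes well above background on both arrays of either group (33674 probes), and a gene was represented by its brightest tested probe (23632 genes). Mutant minus wild type was fitted with limma 3.58.1 (lmFit, eBayes) in R 4.3.3, two-sided, with Benjamini-Hochberg adjustment over all genes and a threshold of 0.05. Degrees of freedom were 2 residual and 2.5 prior, and errors with ± are limma's standard errors. It was tested on simulated data. A second fit took every probe as its own row.

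The members and all gene lists were chosen with earlier results of these data known. Values on every array are given for Rela, the replication and mitotic sets and, of the other members, up to 8 G1/S and 8 G2/M genes with the largest absolute fold change. Up to 3 genes are named from each other cell cycle list, except 1 gene that is not reported here by name. Probe positions within genes were not analysed here. The labels number the mice 1 and 2 in both groups without saying that the numbers pair them. The deviations of same-numbered mice correlated at -0.20 across genes, so no block entered the model.

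Alternatives were normexp background correction (offset 50), quantile or median scaling, a percentile taken over detected probes only, the series table, no filter and a stricter filter on dim probes, the mean of a gene's probes, trend and robust eBayes, array weights, a replicate block, leaving out each mouse and leaving out the damaged corner.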

Additional observations from a re-analysis of the deposited data

How the results depend on the processing

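The count of members called was 0 under every alternative run, and so was that of the other cell cycle genes. The count over all genes was 4. It was 2 with quantile normalization and with the percentile taken over detected probes only, 1 without a filter and with the stricter filter, and 14 with trend and robust eBayes. With the replicate block it was 1, and it was 1 with a crossed replicate block, which was added after the data were seen because same-numbered mice were negatively correlated. The replicate block changed no call of a member. Leaving out a mouse gave 0 to 80 genes called, 80 without mutant mouse 1, and 0 without either wild-type mouse. In these fits the lone mouse is assumed to vary like the other group. The replication median lay between -0.0348 (wild-type mouse 1 left out) and 0.357 (its group mate left out), and the replication minus mitotic difference between -0.107 and 0.0403 (mutant mice 1 and 2 left out in turn).

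Under the other scalings between 36 and 39 members lay above 0, with medians of 0.14 to 0.17. Of Rela, the 45 members and the named other cell cycle genes (66 in all), 4 changed sign under an alternative that kept every mouse. Nusap1 went to -0.00219 with normexp, -0.0192 with quantile normalization and -0.0101 with the percentile over detected probes, where Cdc25c went to -0.00885. Gins2 went to 0.0122 with the array median and with the series table, and Foxm1 to -0.029 with the mean of its probes. Leaving out a mouse changed the sign of 36 of them, 29 without wild-type mouse 1, 3 without wild-type mouse 2, 2 without mutant mouse 1 and 11 without mutant mouse 2. None of these genes was called. Their ranges were Birc5 -0.0121 to 0.52, Bub1 -0.0578 to 0.53, Bub1b -0.13 to 0.32, Ccna2 -0.0578 to 0.62, Ccnb2 -0.0101 to 0.26, Cdc20 -0.0279 to 0.54, Cdc25c -0.27 to 0.28, Cdc27 -0.0509 to 0.25, Cdc45 -0.00338 to 0.15. Further ranges were Cdk1 -0.10 to 0.40, Cdk6 -0.11 to 0.56, Cdkn2a -0.38 to 0.91, Cdt1 -0.0485 to 0.19, Cenpe -0.0743 to 0.63, E2f1 -0.17 to 0.0412, E2f2 -0.29 to 0.11, Foxm1 -0.12 to 0.34, Gins1 -0.00815 to 0.29. Others were Gins2 -0.13 to 0.13, Kif11 -0.28 to 0.32, Kif23 -0.011 to 0.36, Mad2l1 -0.0699 to 0.39, Mcm3 -0.00498 to 0.26, Mcm5 -0.0855 to 0.43, Mcm6 -0.0598 to 0.37, Mcm7 -0.00975 to 0.34, Mki67 -0.19 to 0.44. The last were Nusap1 -0.15 to 0.16, Pcna -0.13 to 0.0911, Plk1 -0.00272 to 0.44, Rrm1 -0.11 to 0.36, Tfdp1 -0.00827 to 0.52, Top2a -0.15 to 0.47, Tpx2 -0.0436 to 0.47, Ttk -0.11 to 0.37, Tyms -0.0337 to 0.19. The cause was not tested. Ccne2 was limited by its signal over background, and Cenpe, Cenpf, Cdkn1a and Rela by the damaged corner.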
